A study of Mus musculus with 9 samples.

Results

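The 10 genes described here are the myogenic regulatory factors Myod1, Myf5, Myog and Myf6, the inhibitors Id1, Id2 and Id3, the repressors Twist1 and Twist2, and the partner Tcf12. They were chosen by name, and each was taken from a row of the array's value table that the annotation gave to that symbol alone. All 10 had exactly 1 such row, among 19938 genes of 1 symbol and 33323 rows in all. The cells were the stromal vascular fraction (SVF) of subcutaneous adipose tissue from C57BL6/J mice aged 10 weeks, grown in a minimal medium with no added inducer. On day 28 the spontaneously beating colonies were picked by hand and combined (beating, n = 4), and what was left in the dish made up the non-beating group (n = 4). On day 14, 6 round cells were picked and pooled for a single array (round, n = 1), which has no replicate and no test. Amplified RNA was hybridised to Mouse Gene 1.0 ST arrays of Affymetrix, whose probes lie along the exons of each gene. Hand-picked colonies can carry neighbouring cells, and separate animals or cultures are not stated in the labels for the replicates, so each p measures the spread between these samples, which may be technical.

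Myogenic regulatory factors are basic helix-loop-helix (bHLH) proteins that start and carry out skeletal muscle differentiation. They bind DNA as dimers with ubiquitous E proteins such as the product of Tcf12, at a short sequence called the E-box. Id proteins lack the basic region and hold E proteins in dimers that cannot bind DNA, whereas Twist proteins compete for E proteins and bind E-boxes themselves. Heart muscle is known to form without the 4 myogenic regulatory factors.

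Values are log2 signals, and array medians lay between 3.08 and 3.17 in the 8 beating and non-beating arrays and at 3.54 in the round pool. A signal includes background, so a fold change is a ratio of signals and not of transcript amounts, and levels of different genes are not set against each other. Genes were tested with limma over all 33323 rows, two-sided, and called at a Benjamini-Hochberg adjusted p under 0.05. The beating label was checked against muscle genes. Tnnt2 (cardiac troponin T) was higher by 5.80 and Actc1 (cardiac actin) by 6.46 on the log2 scale, and Ttn (titin) and Actn2 (alpha-actinin), genes of the sarcomere, by 6.40 and 5.78. Ryr2, the ryanodine receptor of the heart, was at 2.46 ± 0.11 on the beating and 2.45 ± 0.0083 on the non-beating arrays (SD, n = 4 each), both below the array medians, with an adjusted p of 0.948.

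Of the 10 genes, 3 rose in beating samples (Myod1, Myog and Myf6), 1 fell (Twist1) and 6 did not pass the test. Among all rows, 2.82% were called higher and 3.34% lower. The groups did not overlap for 4 genes that were higher in beating samples, where 5.98% of all rows did the same, and for 2 that were lower, against 8.24% of all rows. Of the 6 genes that were not called, Myf5, Twist2 and Tcf12 had an unadjusted p under 0.05. The genes were chosen with earlier results of these arrays known, so their direction is not independent evidence.

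**Figure D1:**
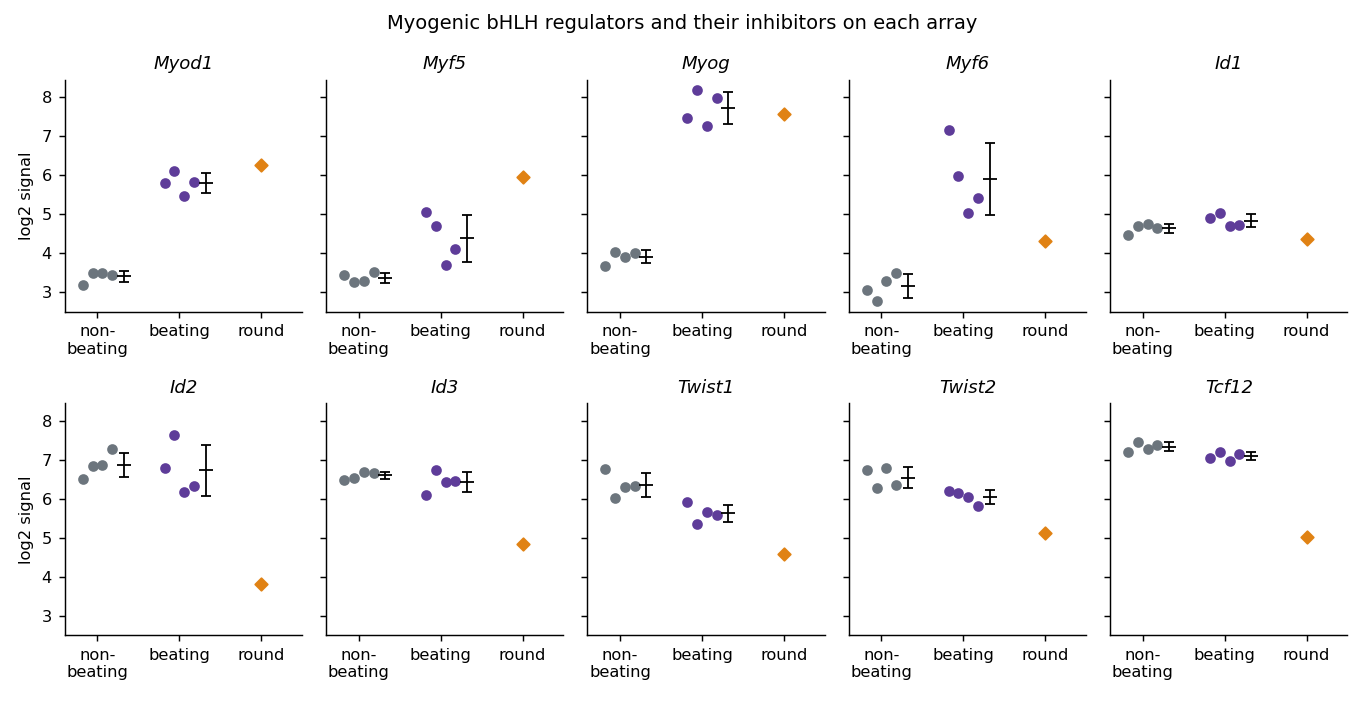
Log2 signal (y axis) of each of the 10 genes on every array, by group (x axis: non-beating, n = 4, beating, n = 4, and the round pool, n = 1), with the group mean as a line and the SD as a bar. Myog lies between 7.27 and 8.18 in beating and between 3.67 and 4.03 in non-beating samples, whereas the 3 Id genes overlap between the groups.

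Myog encodes myogenin, which carries committed myoblasts into fusion and terminal differentiation, and it was the most strongly changed of the 10. Its gene lies on chromosome 1 from base 134290004 to 134292548 (GRCm38). In beating replicates 1 to 4 it measured 7.48, 8.18, 7.27 and 7.97, and in non-beating replicates 1 to 4 it measured 3.67, 4.03, 3.90 and 4.01. Every beating array stood above every non-beating array, with a gap of 3.24 between the groups. The means were 7.73 ± 0.42 and 3.90 ± 0.17 (SD, n = 4 each), a log2 difference of 3.83 (SE 0.20, 95% interval 3.36 to 4.29) or a 14.2-fold higher signal. Its adjusted p was 2.72e-05, and it stayed called under all 17 alternative settings and left-out arrays, at adjusted p-values up to 0.00107.

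Myod1 encodes MyoD, the factor that can convert fibroblasts to muscle when it is forced on. It lies on chromosome 7 from base 46376474 to 46379092. Beating replicates 1 to 4 gave 5.79, 6.10, 5.46 and 5.83, and non-beating replicates 1 to 4 gave 3.17, 3.49, 3.49 and 3.43. The groups did not overlap, and both were narrow. Means of 5.80 ± 0.26 and 3.39 ± 0.15 (SD, n = 4 each) differed by 2.40 on the log2 scale (SE 0.14, 95% interval 2.08 to 2.72), a 5.29-fold higher signal with an adjusted p of 4.57e-05. Myod1 was also called under all 17 alternatives, with adjusted p-values up to 0.00258.

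Myf6 encodes MRF4, a factor of late differentiation and of mature fibres, and lies on chromosome 10 from base 107492848 to 107494723. In beating replicates 1 to 4 its signal was 7.16, 5.98, 5.03 and 5.42, against 3.04, 2.76, 3.29 and 3.48 in non-beating replicates 1 to 4. The groups were apart by 1.55, and beating replicate 1 stood well above the other 3. The means of 5.90 ± 0.93 and 3.14 ± 0.31 (SD, n = 4 each) differed by 2.76 (SE 0.43, 95% interval 1.77 to 3.74), or 6.75-fold in signal, with an adjusted p of 0.0098. The call was lost with a pooled-variance two-sample test on each row, adjusted like the others (adjusted p = 0.0507), and was kept in the other 16 alternatives. Over the alternatives the difference ranged from 2.34, without beating replicate 1, to 3.05, without beating replicate 3.

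Myf5, the factor that appears earliest in embryonic muscle and marks myoblasts, is the neighbour of Myf6 on chromosome 10 (107482908 to 107486927), with 5920 bases between them. It measured 5.04, 4.69, 3.69 and 4.09 in beating replicates 1 to 4 and 3.44, 3.24, 3.28 and 3.51 in non-beating replicates 1 to 4. The groups did not overlap, but the gap was 0.18 and the beating arrays were spread widely. The log2 difference was 1.01 (SE 0.27, 95% interval 0.38 to 1.63, unadjusted), a 2.01-fold signal, and it did not pass the test (adjusted p = 0.072). It passed in 3 of 17 alternatives: without rows at the dim end of the table (adjusted p = 0.0386), after a 1.5-fold prefilter (0.0248) and without beating replicate 3 (0.0243).

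The neighbouring genes Myf5 and Myf6 ranked the beating arrays in the same order, from high to low replicates 1, 2, 4 and 3. Myod1 and Myog ranked them 2, 4, 1 and 3. Replicate 3 was thus the lowest of the 4 beating arrays for every one of the 4 regulators. It was also the lowest for Id1, Id2 and Tcf12, and not for Id3, Twist1 or Twist2. Tcf12 shared the order of Myod1 and Myog. Replicate 1 was the highest for Myf5 and Myf6, as for Twist1 and Twist2, and not for Myod1 or Myog. The mean log2 signal over the 18 E-box targets described below was 7.35, 7.14, 6.81 and 7.02 in beating replicates 1 to 4. It was thus also lowest in replicate 3, and it ranked the arrays as Myf5 and Myf6 did, unlike Myod1 and Myog. These orders are a description of 4 arrays and were not tested. Among the beating arrays, replicate 1 also had the lowest mean log2 signal over 10 macrophage genes (3.47), 10 endothelial genes (3.61) and 12 fibroblast genes (7.54), whereas the mean over 9 adipocyte genes was lowest in replicate 2 (3.72, against 3.86 in replicate 1). The part of these cells in the order of the arrays was not tested.

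The stretch of 250 bases before the start is shown for the regulator with the largest rise, for the regulator that did not pass the test and for the gene that fell, since regulators of this family act at E-boxes. The sequences are from RefSeq (GRCm38.p6), 5′ to 3′ on the gene's strand. For Myf5 the start given in the promoter table lies inside the annotated interval above, so its window overlaps that interval. Capitals mark each E-box of the form CANNTG, which reads the same form on both strands.
Myog, chr1:134289754-134290003, plus strand: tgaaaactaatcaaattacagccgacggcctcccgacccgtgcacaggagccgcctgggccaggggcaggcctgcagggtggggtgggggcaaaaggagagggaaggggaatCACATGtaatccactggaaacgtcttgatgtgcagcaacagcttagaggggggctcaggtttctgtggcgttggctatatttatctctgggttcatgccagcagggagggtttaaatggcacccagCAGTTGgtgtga
Myf5, chr10:107486135-107486384, minus strand: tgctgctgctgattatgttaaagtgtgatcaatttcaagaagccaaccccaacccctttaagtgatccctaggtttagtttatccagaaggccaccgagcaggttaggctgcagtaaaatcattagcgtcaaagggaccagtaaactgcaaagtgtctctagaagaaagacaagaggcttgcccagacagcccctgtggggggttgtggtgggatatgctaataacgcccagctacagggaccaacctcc
Twist1, chr12:33957421-33957670, plus strand: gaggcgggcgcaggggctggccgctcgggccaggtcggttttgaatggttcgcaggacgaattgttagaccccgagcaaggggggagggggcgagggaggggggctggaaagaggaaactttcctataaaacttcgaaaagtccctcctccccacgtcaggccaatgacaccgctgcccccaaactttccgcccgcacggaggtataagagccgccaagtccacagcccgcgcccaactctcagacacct

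Myog held 2 E-boxes, CACATG beginning 138 bases and CAGTTG beginning 12 bases before the start, and Myf5 and Twist1 held none in this window. Of 32851 mouse promoter windows of the same length, 66.2% held at least 1 CANNTG, so its presence is common. The table of promoters held 7 of the 10 genes, and 3 of these had a CANNTG: Myog, Id2 with CAGCTG and Tcf12, where it was found at some of the starts listed. CAGCTG occurred in 13.0% of all windows. Myod1, Myf6 and Id1 were not in the table. A match is a description of the letters and not evidence of binding.

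None of the 3 Id genes passed the test, as was the case for most of all rows, and whether they differed from the regulators was not tested. Id1, an immediate target of bone morphogenetic protein (BMP) signalling, measured 4.90, 5.03, 4.68 and 4.72 in beating replicates 1 to 4 and 4.46, 4.68, 4.75 and 4.63 in non-beating replicates 1 to 4. The groups overlapped. The log2 difference was 0.20 (SE 0.098, 95% interval -0.027 to 0.43, adjusted p = 0.301). Id1 lies on chromosome 2 from base 152736251 to 152737410.

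Id2, which also restrains E proteins in lymphoid cells, lies on chromosome 12 (25093799 to 25096092) and was widely spread. It measured 6.78, 7.63, 6.18 and 6.34 in beating replicates 1 to 4 and 6.51, 6.84, 6.87 and 7.27 in non-beating replicates 1 to 4. Beating arrays held both the highest and the lowest value. The difference was -0.14 (SE 0.32, 95% interval -0.87 to 0.59, adjusted p = 0.851).

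Id3 lies on chromosome 4 (136143822 to 136145392) and, like Id1, is known as a target of BMP signalling. Its signal was 6.10, 6.73, 6.44 and 6.46 in beating replicates 1 to 4 and 6.49, 6.54, 6.70 and 6.67 in non-beating replicates 1 to 4. The groups overlapped, and beating replicate 1 was the lowest array. The difference was -0.17 (SE 0.13, 95% interval -0.46 to 0.13, adjusted p = 0.523). The intervals of Id1 and Id3 are narrow against the changes of Myog and Myod1, while that of Id2 includes a fall of 0.87 and a rise of 0.59. A p that misses the threshold does not show that levels were equal.

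Twist1, a factor of mesenchymal cells that opposes MyoD, fell in beating samples. It measured 5.91, 5.35, 5.65 and 5.58 in beating replicates 1 to 4 and 6.77, 6.02, 6.31 and 6.32 in non-beating replicates 1 to 4. All beating arrays lay below all non-beating arrays, by a gap of 0.11. The means were 5.62 ± 0.23 and 6.36 ± 0.31 (SD, n = 4 each), a log2 difference of -0.74 (SE 0.17, 95% interval -1.14 to -0.34) or a 1.67-fold lower signal, with an adjusted p of 0.048. The gene lies on chromosome 12 from base 33957671 to 33959831. The direction held in all 17 alternatives, but the call held in 6 of them. It was lost with quantile normalisation (adjusted p = 0.0777), with an intensity trend (0.0529) or robust estimation (0.0503) of the variance, and with the pooled-variance test (0.127). Leaving out single arrays gave adjusted p-values from 0.0445 to 0.111, and the call was kept when beating replicate 1 was left out and lost without any of the other 7.

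Twist2, a close relative expressed in dermal and adipose mesenchyme, lies on chromosome 1 (91801461 to 91848034). It measured 6.20, 6.14, 6.05 and 5.81 in beating replicates 1 to 4 and 6.75, 6.29, 6.79 and 6.35 in non-beating replicates 1 to 4. The groups did not overlap, with a gap of 0.084. The log2 difference was -0.49 (SE 0.14, 95% interval -0.82 to -0.16), a 1.41-fold lower signal that did not pass the test (adjusted p = 0.0912). It passed in none of the alternatives.

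Tcf12 encodes HEB, an E protein that dimerises with the myogenic factors, and lies on chromosome 9 (71844252 to 72111893). Its values were 7.04, 7.20, 6.97 and 7.16 in beating replicates 1 to 4 and 7.20, 7.46, 7.28 and 7.39 in non-beating replicates 1 to 4. The highest beating and the lowest non-beating array met at 7.20. The difference was -0.24 (SE 0.082, 95% interval -0.43 to -0.052, unadjusted), with an adjusted p of 0.138 in limma.

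**Figure D2:**
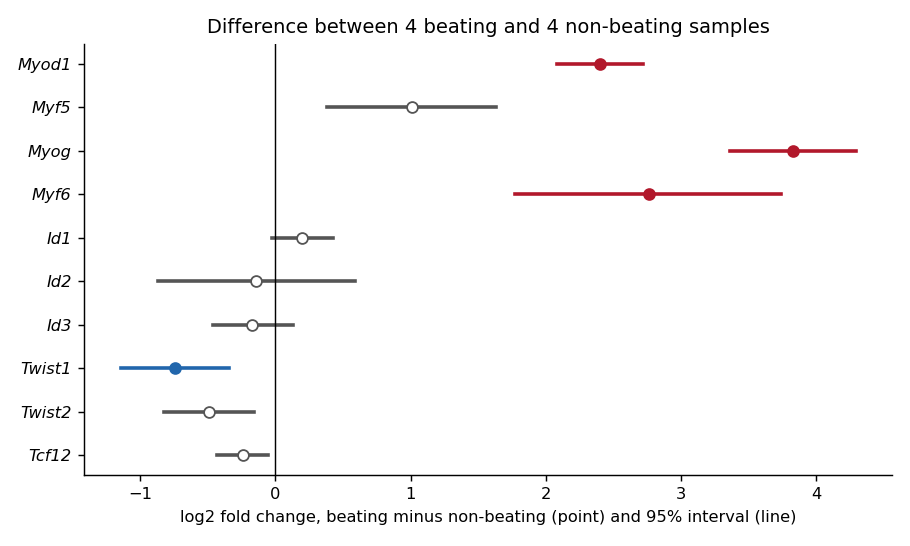
Log2 difference, beating minus non-beating (x axis), of each of the 10 genes (y axis), with the limma 95% interval as a bar (n = 4 per group). Filled points passed the adjusted threshold. The called regulators lie between 2.40 and 3.83 and Twist1 lies at -0.74, while the bars of the 3 Id genes cross 0.

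Fibroblast markers were set beside the fall of Twist1. Of 12 fibroblast genes, 3 fell (Thy1, a surface glycoprotein, by 1.96, Pdgfra, a growth factor receptor, by 1.48 and Dcn, the matrix proteoglycan decorin, by 1.17 on the log2 scale), none rose and 9 were not called, with a median difference of -0.68. The count was 2 with the pooled-variance test, with the replicate block and without non-beating replicate 2 or 3. It was 4 without dim rows, with array weights and without non-beating replicate 4, and 5 after the prefilter. The median over all rows was 0.0073. Col1a1 and Col1a2, not called, lay on the higher side (0.46 and 0.044), unlike the rest of the 12. The mean log2 signal over the 12 genes lay between 7.54 and 8.15 in beating and between 8.22 and 8.83 in non-beating samples. Replicate 1 had the highest Twist1 signal in both groups. Its fibroblast mean was the lowest of the beating arrays (7.54) and the highest of the non-beating arrays (8.83). The part of fibroblasts in the fall of Twist1 was not tested. In such mixed samples fewer cells of a type and less RNA per cell cannot be told apart.

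Further lists of genes around the bHLH factors were described by counts. Of 18 textbook E-box targets in muscle, 15 rose and none fell, with a median log2 difference of 3.63. The largest rises were those of Myl1 (fast myosin light chain, 6.28), Chrna1 (acetylcholine receptor subunit, 5.70), Acta1 (skeletal actin, 5.57) and Des (desmin, 5.36). The 3 that did not pass were Ckm (muscle creatine kinase, 0.38, adjusted p = 0.109), Chrne (the adult receptor subunit, 0.47, adjusted p = 0.168) and Rapsn (a receptor-clustering protein, 0.19, adjusted p = 0.523). Under the alternatives 14 or 15 of the 18 were called higher.

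Among 11 cofactors of the myogenic factors 3 rose: Mef2c by 4.01, Mef2a by 0.85, both MEF2 factors that act with bHLH proteins, and Smarcd3, a chromatin remodelling subunit of muscle, by 0.79. None fell, 8 were not called and the median difference was 0.08. With the pooled-variance test 1 of the 11 was called higher, and without dim rows or without beating replicate 3 the count was 4. With median centring 1 was called lower. Of 13 E proteins, Id4 and other bHLH partners, 1 rose, Scx, which encodes the tendon factor scleraxis (2.42, adjusted p = 2.53e-04), and 12 were not called, with a median of -0.033. The other E proteins gave differences of -0.21 for Tcf3 and -0.26 for Tcf4, neither of which passed.

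Of 11 other repressors of myogenic bHLH activity 1 fell, Mdfic, an inhibitor that binds the factors (-0.41, adjusted p = 0.0241), and 10 were not called, with a median of -0.37 and 8 at an unadjusted p under 0.05. That call was lost with quantile normalisation, with the pooled-variance test and without any 1 of the 4 non-beating arrays. The count called lower was 2 without dim rows and without beating replicate 4. With the replicate block 1 of the 11 was called higher. Ccnd1, the cyclin of dividing cells, differed by -1.21 with an adjusted p of 0.0646. None of 22 BMP pathway genes was called by limma or by the pooled-variance test, as was the case for most of all rows. Of the 22, 4 had an unadjusted p under 0.05 in limma, and the median was -0.13.

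Among 10 satellite cell genes, the stem cells of muscle, 2 rose: Itga7, an integrin of muscle, by 1.67 and Cdh15, M-cadherin, by 0.77, which is also among the E-box targets. The count was 1 with the pooled-variance test, with the replicate block and without beating replicate 2 or 4 or any 1 of the 4 non-beating arrays. It was 3 without dim rows, after the prefilter and with array weights. Vcam1, an adhesion molecule, fell by 1.16, and 7 were not called. Among these were Megf10 (1.13, adjusted p = 0.0726 in limma) and Pax7 (0.13) and Pax3 (-0.36), the transcription factors of muscle stem cells. The median was 0.14.

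Genes of other cells were mostly not called, as was the case for all rows, of which 2.82% were called higher and 3.34% lower. Of 10 endothelial genes none was called by either test and none had an unadjusted p under 0.05, with a median difference of -0.21. Of 11 cell cycle genes none was called by either test, 1 had an unadjusted p under 0.05 and the median was -0.14. Of 10 macrophage genes none was called by either test, but 9 had an unadjusted p under 0.05 and the median was -2.17. Their mean log2 signal lay between 3.47 and 5.70 in beating and between 5.71 and 7.48 in non-beating samples, beside the differences of the Id and Twist genes, in which their part was not tested. The count was unstable: 6 of the 10 were called lower under a replicate block and after the prefilter, 5 without dim rows and without beating replicate 4, 2 with median centring and 1 with an intensity trend or without non-beating replicate 1. Of 9 adipocyte genes 2 fell, Lpl (lipoprotein lipase) by 2.13 and Adipoq (adiponectin) by 1.95, with a median of -0.20. The count was 1 with the pooled-variance test, with the replicate block and without beating replicate 2, beating replicate 3 or non-beating replicate 3. It was 3 without dim rows, after the prefilter and without beating replicate 4.

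**Figure D3:**
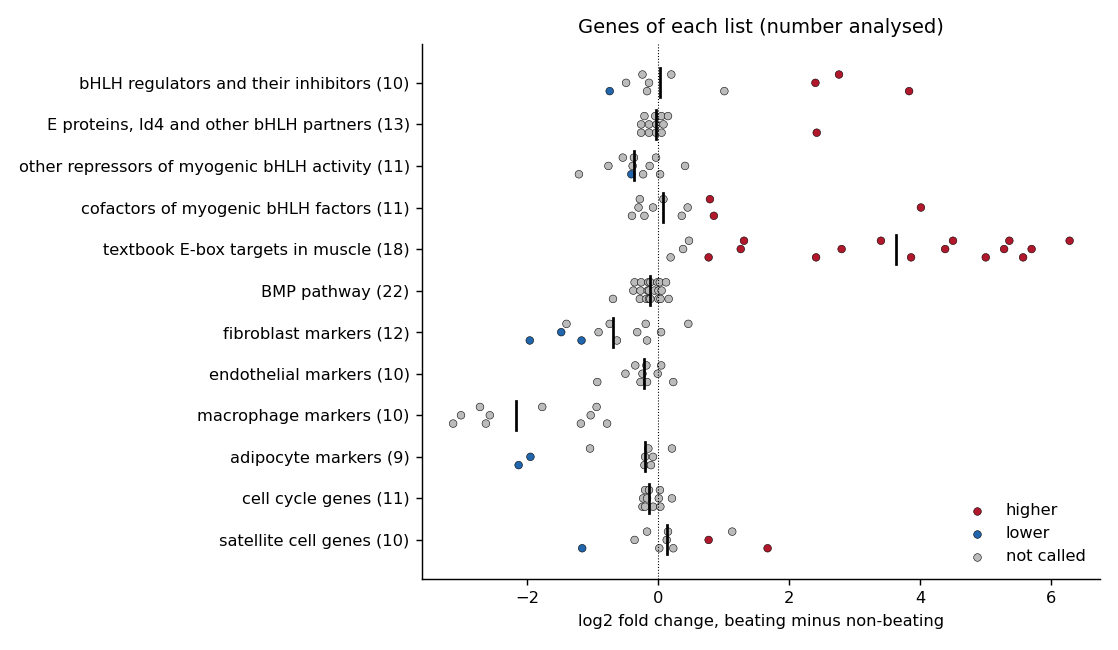
Log2 difference, beating minus non-beating (x axis), of every gene in each list (y axis, 1 point per gene, n = 4 arrays per group), with the list's median as a vertical line, genes called higher in red, genes called lower in blue and the others in grey. The E-box targets lie to the right, with a median of 3.63, while the BMP list lies near 0 with a median of -0.13.

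The genes whose arrays moved most like a called gene were found by the root mean square difference of gene-centred log2 signals over the 8 arrays. This measure includes the difference between the groups, so it favours genes of like fold change and does not show shared regulation. For Myog these were Myh7 (slow and cardiac myosin heavy chain, 0.23) and Ldb3 (a Z-disc protein, 0.26), and for Myod1 Arpp21 (0.14) and Lmo7 (0.19). For Myf6 they were Prr32 (0.25) and Pdk4 (a pyruvate dehydrogenase kinase, 0.30). For Twist1 they were Idi1 and Cyp51, both enzymes of cholesterol synthesis, each at 0.13, and neither of the latter passed the test (adjusted p = 0.11 and 0.0525).

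The round pool of day 14 is a single array of 6 cells, set beside the others with no test. Its values were distributed differently, and the bright end of the table lay low. Rows were split into 4 equal groups by mean level over the 8 other arrays. The median difference from the non-beating mean was -1.29 over the brightest group (5.0 and above), against 0.32 over the dimmest. The reason was not tested. Of all rows, 14.3% lay at least 2-fold above and 16.6% at least 2-fold below the non-beating mean in the round pool, and 46.4% lay above and 24.4% below all 8 other arrays. Of the 10 genes, 4 were at least 2-fold above and 5 at least 2-fold below the non-beating mean, 2 lay above all 8 arrays and 6 below all 8.

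The 4 regulators were the genes on the high side. Myod1 measured 6.27 in the round pool, 2.87 above the non-beating mean and 0.47 above the beating mean, and 1.51% of the rows in the same level group stood as far above the non-beating mean. Myf5 measured 5.94, 2.57 above the non-beating and 1.56 above the beating mean, as high as 1.93% of rows of like level. As deposited, both were higher in the round pool than on any other array, as were 46.4% of all rows. With median centring this held for Myf5, while Myod1 was above 3 of the 4 beating arrays and 0.076 above their mean. Myog measured 7.57, 3.67 above the non-beating mean and within the range of the beating arrays as deposited. In the brightest group 1.12% of rows stood as far above. Myog falls in that group by its mean over the 8 arrays, while its non-beating mean of 3.90 lies below 5.0, so these rows do not share its baseline. Its difference from the beating mean turned from -0.16 to 0.77 after quantile normalisation and was -0.55 with median centring. Myf6 measured 4.30, 1.16 above the non-beating and 1.60 below the beating mean, below all 4 beating arrays, and 14.4% of rows of like level stood as far above. With median centring its difference from the non-beating mean was 0.71, under 2-fold.

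The inhibitors and the partner lay low in the round pool, where most bright rows also lay low. Id2 measured 3.81, 3.06 below the non-beating mean, and 16.6% of rows of like level lay as far below. Tcf12 measured 5.02, 2.32 below, as did 27.7% of such rows. Id3 measured 4.84 (1.76 below, 38.8% of such rows), Twist1 4.59 (1.77 below, 38.7%) and Twist2 5.13 (1.41 below, 46.9%), so these 3 lay near the middle of the bright rows. In the brightest group of rows, which holds these 5 genes, 58.1% lay at least 2-fold below the non-beating mean and 72.7% below all 8 arrays. Quantile normalisation brought Twist2 to -0.49 from the non-beating mean and Id3 to a difference of -1.0. Id1, of the next dimmer group, measured 4.37, 0.26 below the non-beating mean, and was the only 1 of the 6 within 2-fold of it as deposited.

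Of the 18 E-box targets 14 were at least 2-fold above the non-beating mean in the round pool, where 14.3% of all rows did the same. The mean log2 signal of the 18 was 6.77, against 6.81 to 7.35 in beating and 3.67 to 3.93 in non-beating arrays. All 12 fibroblast genes were at least 2-fold below, with a mean of 4.49. So were 16.6% of all rows, and 58.1% of the brightest group, in which the 12 lie by their mean level. These are values of 1 array, and their relation to the number of cells in it was not tested.

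**Figure D4:**
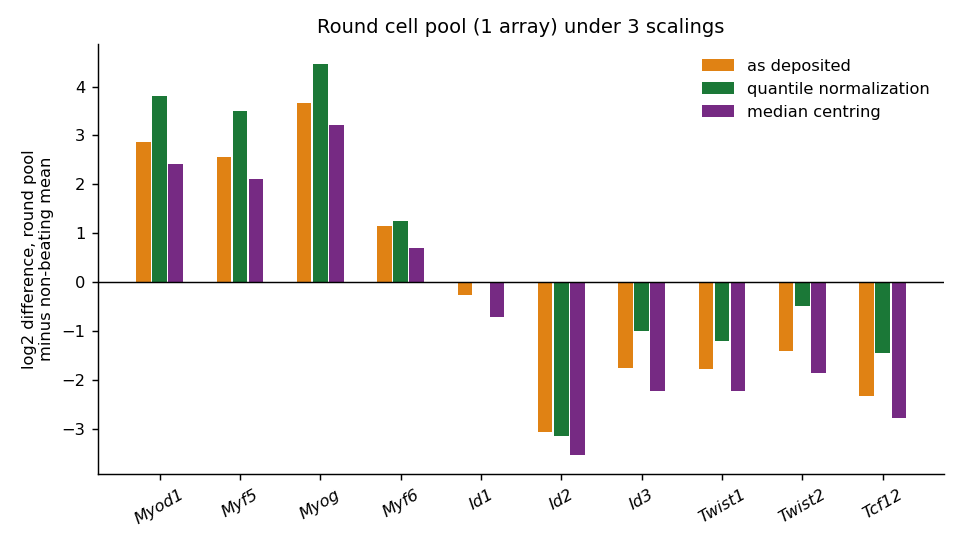
Log2 difference of the round pool (n = 1) from the mean of the 4 non-beating arrays (y axis) for each of the 10 genes (x axis), with bars for the values as deposited and after quantile normalisation and median centring. Myod1, Myf5 and Myog lie more than 2-fold above the non-beating mean under each scaling, and Id2, Twist1 and Tcf12 more than 2-fold below.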

How the data were processed

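RNA from 4 beating, 4 non-beating and 1 round sample was amplified and hybridised by the authors to Affymetrix Mouse Gene 1.0 ST arrays. For their own analysis the authors used BRB-ArrayTools, with log2 scaling, normalisation and mean-centring. The deposited table holds log2 signals, and the method that made it is not given in the sources used here. The values are not centred per gene and were used as deposited. Symbols came from the platform annotation and were updated through the gene number for 21698 rows to GRCm38 names, and all per-sample columns were used.

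The 4 beating arrays were tested against the 4 non-beating arrays by a moderated linear model (limma 3.58.1 under R 4.3.3; functions lmFit, eBayes) without covariates, two-sided, with Benjamini-Hochberg adjustment over all rows. Precision is limited by the number of arrays. The fit was tested on simulated data. The round pool was described without a test. The genes and lists were chosen with earlier results of these data known. Named genes were all 10, up to 4 called genes of the largest change in each list, any gene in a count of 5 or fewer, and the 2 genes most like each called gene. Tcf3, Tcf4, Ccnd1, Col1a1, Col1a2, Megf10, Pax3 and Pax7 were named after their values were seen. Alternatives covered normalisation, dim rows, a prefilter, the variance model, array weights, a pooled-variance two-sample test (the kind used in the study, here over all rows with adjusted p-values and not at the study's prefilter and threshold), a replicate block, the round pool in the fit and leaving out each array. Some listed genes were not analysed here.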

Additional observations from a re-analysis of the deposited data

How the results depend on the processing

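Over 17 alternatives (9 settings and 8 left-out arrays) no result of the 10 genes reversed its call: of 166 results, 151 kept their side of the threshold, 3 passed it and 12 no longer did. The number of the 10 genes called higher was 3 as reported and 2 to 4 under the alternatives. The number called lower was 1, and it was 0 with quantile normalisation, with an intensity trend in the variance, with robust variance and with the pooled-variance test, and ranged from 0 to 1 when each array was left out. The cause was not tested.

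With the replicate number as a block, 3 of the 10 were called higher and 1 lower, and 637 rows rose and 645 fell among all rows, where 940 and 1114 did without it. Deviations of same-numbered samples over all rows correlated between -0.012 and 0.0278, and 0 of the 4 correlated best with its own number. Dim rows count in these correlations as much as bright ones, so they cannot exclude pairing. Twist1 was highest in replicate 1 and lowest in replicate 2 of both groups. The macrophage and endothelial means were highest in replicate 4 of both groups, whereas the orders of Myf6 differed. The authors state that a beating sample combined colonies from dishes of a single SVF lot. The remaining cells of a dish were collected as non-beating, so samples of both groups can share a lot. The labels do not state which numbers belong together, so the numbers were not treated as pairs. The pooled-variance test called 491 rows higher and 375 lower, and median centring moved the share of higher calls from 45.8% to 34.1%. Without non-beating replicates 1, 2, 3 or 4 in turn, 547, 438, 473 and 690 rows were lower, and 631 without beating replicate 2. Without non-beating replicates 2 and 3, 569 and 575 were higher. Choosing another row for a gene did not apply, since each of the 10 has 1 row. Adding the round pool to the fit as a group of its own gives the same estimates by construction and was not counted.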
